A study of Homo sapiens with 10 samples.

Results

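The genes described here are 8 that encode proteins of innate RNA sensing: the receptors DDX58 (RIG-I), IFIH1 (MDA5) and DHX58 (LGP2), their adaptor MAVS, the endosomal receptor TLR3, and the RNA-binding proteins EIF2AK2 (PKR), ADAR and ZBP1. They were taken by gene name, without use of their values, from the tables of all 10 RNA-seq libraries, where each was found once; they are 8 of 36545 genes in the IFN-β tables and 8 of 22609 in the knockdown tables. All libraries come from KYSE30, KYSE180 and KYSE450, established lines of human esophageal squamous cell carcinoma (ESCC). In one experiment, each of the 3 lines was either left as an untreated control, which the protocol describes as given PBS (a saline buffer), or treated with IFN-β, a type I interferon, at 1000 IU/ml for 72 h (3 libraries a group). In the other, KYSE30 and KYSE180 carried either a lentiviral vector control or a lentiviral knockdown of IRF1-AS, the antisense RNA of the IRF1 gene (2 libraries a group). The labels of these libraries name no interferon treatment. Each line has 1 library per group, so the line is the replicate, and nothing in a line's single pair separates the treatment from variation between cultures. Tests used limma, which draws each gene's spread between lines toward that of other genes. The p-values and SEs therefore do not rest on a gene's own spread alone. Values are FPKM (fragments per kilobase of transcript, relative to the library's total), a scale per length on which genes of a library can be compared; named genes of the IFN-β libraries sum to nearly the same total in each library, so those values may have been rescaled before deposit.

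Cells recognise viral RNA by features that most of their own RNA lacks. RIG-I binds short double-stranded RNA ends with a triphosphate and MDA5 binds long duplexes; both contain caspase recruitment domains and pass the signal to MAVS on the mitochondrial membrane, which leads to transcription of type I and III interferons. Interferons in turn act through cell surface receptors and transcription factors that bind the interferon-stimulated response element (ISRE) in the promoters of many target genes, the RNA sensors among them.

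Sequence near the start of 5 genes is shown because many interferon responses are known to run through such elements: the members with a match, and MAVS as a member without one. RefSeq (GRCh38.p14) held promoters of 300 bases (250 before and 50 after the start) for 6 of the 8 genes; DHX58 and ZBP1 had no entry. Both strands were searched for the ISRE core GAAANNGAAA, and, as a choice made once the sequences had been seen, for GAAANGAAA, whose GAAA units lie 1 base apart. The first occurred in 3.57% and the second in 3.12% of 35116 promoters of the same length. The stretches of DDX58, IFIH1 and MAVS end where the GENCODE gene begins, they are written 5′ to 3′ on the strand of the gene, and capitals mark the matches.
DDX58, chr9:32526325-32526446, minus strand: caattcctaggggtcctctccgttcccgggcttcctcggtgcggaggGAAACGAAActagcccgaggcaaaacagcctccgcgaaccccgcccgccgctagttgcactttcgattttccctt
IFIH1, chr2:162318704-162318934, minus strand: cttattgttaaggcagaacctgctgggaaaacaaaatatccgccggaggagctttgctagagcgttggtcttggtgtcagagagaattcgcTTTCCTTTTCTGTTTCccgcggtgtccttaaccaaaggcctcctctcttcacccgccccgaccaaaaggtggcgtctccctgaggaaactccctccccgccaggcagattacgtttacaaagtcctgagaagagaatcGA
IFIH1, chr2:162318686-162318715, minus strand: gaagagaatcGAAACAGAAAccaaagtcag
EIF2AK2, chr2:37156967-37156996, minus strand: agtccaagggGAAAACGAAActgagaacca
TLR3, chr4:186069142-186069171, plus strand: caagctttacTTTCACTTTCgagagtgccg
MAVS, chr20:3846584-3846798, plus strand: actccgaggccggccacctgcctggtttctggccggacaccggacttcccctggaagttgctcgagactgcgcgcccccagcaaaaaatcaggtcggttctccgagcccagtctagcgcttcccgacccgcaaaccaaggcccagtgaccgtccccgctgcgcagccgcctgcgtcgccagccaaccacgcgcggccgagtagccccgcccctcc

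IFIH1 held 3 matches to GAAANNGAAA, of which a pair overlapped each other on the opposite strand and the third, GAAACAGAAA, lay 21 bases before the RefSeq start (the longer IFIH1 stretch ends within it). EIF2AK2 held GAAAACGAAA, beginning 6 bases before its RefSeq start. TLR3 held TTTCACTTTC, the core on the opposite strand, beginning 4 bases before its RefSeq start. By the GENCODE bounds given below, the EIF2AK2 and TLR3 matches lie inside the gene. DDX58 held only the closer-spaced form, GAAACGAAA, beginning 203 bases before its RefSeq start. Neither form occurred in the MAVS promoter or in the 3 promoters listed for ADAR. A match describes letters in this window and is not evidence that a factor binds there.

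The genes lie on 6 chromosomes of GRCh38 (GENCODE 29): DDX58 at chr9:32455705-32526324, IFIH1 at chr2:162267079-162318703, DHX58 at chr17:42101404-42112733, MAVS at chr20:3846799-3876123, TLR3 at chr4:186069152-186088069, EIF2AK2 at chr2:37099210-37157065, ADAR at chr1:154582057-154628013 and ZBP1 at chr20:57603846-57620576. EIF2AK2 overlaps GPATCH11 by 35 bases and a processed pseudogene of 775 bases, both on the other strand. The strand setting was not given in the sources used here, and EIF2AK2 values could include reads of these genes; the other members overlap no annotated gene.

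Between 10993 and 11887 named genes reached 1 FPKM in the IFN-β libraries, and between 11797 and 12435 gene rows did in the knockdown libraries. Absolute depth is unknown. As deposited, the median named gene was higher by 0.43 on the log2 scale in IFN-β-treated KYSE450 than in untreated KYSE450 (KYSE30 -0.01, KYSE180 -0.03), so the libraries were scaled to each other before any fold or test, and raw FPKM are given for levels. Keratin RNA typical of squamous cells was low in KYSE30 of the IFN-β experiment: KRT5 stood at 2.91 FPKM untreated and 1.37 FPKM treated, while TP63 was at 26.05 FPKM or more in every library of that experiment. In the KYSE30 libraries of the knockdown experiment KRT5 did not fall below 117 FPKM, so the libraries labelled KYSE30 differ between the experiments, and whether they are the same line was not tested. Of the leukocyte markers, CD3D and MS4A1 were listed at 0 in every library and PTPRC reached at most 0.09 FPKM, but CD68 ranged from 0.61 to 15.84 FPKM in the IFN-β libraries and CSF1R reached 1.35 FPKM in the knockdown libraries. The 12 leukocyte markers summed to between 0.94 and 9.81 FPKM in untreated and between 3.38 and 16.8 FPKM in IFN-β-treated libraries, most of it CD68, and their part in the results was not tested. No fibroblast or endothelial marker exceeded 5.38 FPKM.

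After IFN-β, RNA of DDX58, IFIH1, DHX58, TLR3, EIF2AK2 and ADAR was higher in all 3 lines, while that of the adaptor MAVS was lower after scaling. DHX58 and ADAR rose past the threshold (adjusted p under 0.05 over all genes, limma). On the fitted log2(scaled FPKM + 1) scale, DDX58, IFIH1 and EIF2AK2 had larger mean changes that varied more between the lines and missed it. As a plain ratio of scaled FPKM, DHX58 rose 41.4-fold in KYSE30, 3.67-fold in KYSE180 and 105-fold in KYSE450. Its controls in KYSE30 and KYSE450 were near 0, so the order of DHX58 and these genes depends on the scale. The called genes are 2 of 7 members tested, beside 0.418% of all 12428 genes tested (52 genes, all higher). ZBP1 did not reach 1 FPKM in the 3 libraries needed for a test. The median log2 change of the 7 tested members was 1.94, and that of all genes tested was -0.01. All 7 had an unadjusted p under 0.05, as had 1208 of all genes tested.

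DDX58, the receptor for triphosphate RNA ends, stood at 4.42 FPKM in untreated and 96.4 FPKM in treated KYSE30, at 3.25 and 12.9 FPKM in KYSE180, and at 2.36 and 179 FPKM in KYSE450. The groups do not overlap, and treated KYSE180 lies far below the other treated lines. After scaling this is 21.9-fold in KYSE30, 4.10-fold in KYSE180 and 53.4-fold in KYSE450, a log2 fold change of 3.75 ± 0.78 (SE, n = 3 lines; adjusted p = 0.394, limma). Among genes at 1 FPKM or more as deposited, DDX58 moved from the 22.4 to the 92.5 percentile in KYSE30 and from the 15 to the 49.1 percentile in KYSE180. In KYSE450 it moved from the 13.1 to the 95.1 percentile. Scaling a whole library keeps the order of its genes, but it changes which genes reach 1 FPKM and so the percentile. In KYSE450, 10993 named genes reached 1 FPKM untreated and 11652 treated.

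IFIH1, the receptor for long duplexes, stood at 4.54 and 62.0 FPKM in KYSE30, at 4.38 and 14.9 FPKM in KYSE180, and at 1.19 and 53.2 FPKM in KYSE450 (untreated, then treated). Again the groups do not overlap and KYSE180 has the lowest treated value. The folds after scaling were 13.7, 3.5 and 31.5, and the log2 fold change was 3.12 ± 0.55 (SE, n = 3; adjusted p = 0.250, limma).

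DHX58 encodes LGP2, which binds RNA but has no signalling domain and modulates RIG-I and MDA5. Its control level set the lines apart: 0.05 FPKM in KYSE30 and 0.04 FPKM in KYSE450, but 4.91 FPKM in KYSE180. Treated libraries stood at 2.06, 5.96 and 17.5 FPKM, in that order. Every line was higher than its own control, but untreated KYSE180 exceeded treated KYSE30, so the groups overlap. The rise was 1.60 on the log2(scaled FPKM + 1) scale in KYSE30, 1.67 in KYSE180 and 2.54 in KYSE450, and the fitted log2 fold change was 1.94 ± 0.22 (SE, n = 3; adjusted p = 0.0316, limma). The added 1 FPKM understates the change from near 0 in 2 of the lines: with 0.1 FPKM added the log2 fold change was 3.63, but the call was lost (adjusted p = 0.215, limma). It was also lost without the filter on low values (adjusted p = 0.295, limma); the gene passed the filter through its 3 treated libraries and 1 control. The call was lost without KYSE180 (adjusted p = 0.0819) and without KYSE450 (adjusted p = 0.0678).

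**Figure D1:**
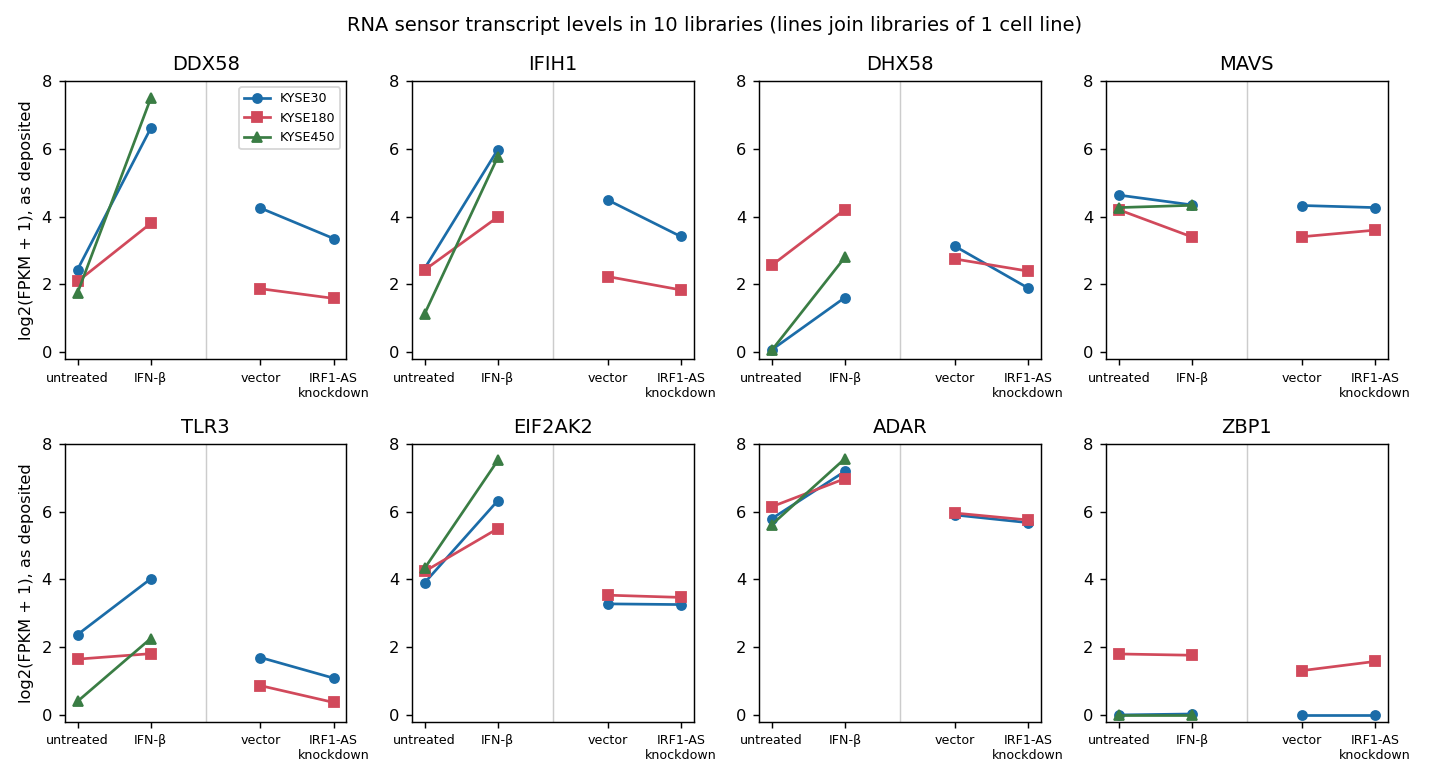
Level of each of the 8 RNA sensor genes in the 10 libraries, as log2(FPKM + 1) of the deposited values; each panel is a gene, the horizontal axis gives the group and each line of points joins libraries of 1 cell line. DDX58 and IFIH1 of KYSE180 (12.9 and 14.9 FPKM after IFN-β) stay below the other treated lines, whereas DHX58 is highest in KYSE180 (17.5 FPKM).

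MAVS, the mitochondrial adaptor that RIG-I and MDA5 share, differed in direction from its receptors. It stood at 23.9 FPKM untreated and 19.3 FPKM treated in KYSE30, at 17.4 and 9.57 FPKM in KYSE180, and at 18.3 and 19.2 FPKM in KYSE450. After scaling, the treated level was 81.6%, 56.6% and 74.1% of control in these lines, but as deposited KYSE450 was higher by 0.07 on the log2 scale, so the direction in that line turns with the scaling. Its percentile rank among genes at 1 FPKM or more as deposited, a set that differs between libraries, was lower after treatment in each line. The rank moved from 69.6 to 63.8 for KYSE30, from 57.8 to 39.8 for KYSE180 and from 65.6 to 59.1 for KYSE450. The log2 fold change of -0.48 ± 0.14 (SE, n = 3; adjusted p = 0.418, limma) did not pass the test. MAVS is 1 member of 7 lower in every line, as were 18.2% of all genes tested.

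TLR3, which recognises double-stranded RNA inside endosomes and signals through TICAM1 rather than MAVS, differed by line. KYSE30 had 4.17 FPKM untreated and 15.2 FPKM treated, and KYSE450 had 0.32 and 3.77 FPKM, but KYSE180 had 2.13 and 2.5 FPKM. Scaled folds were 3.66 in KYSE30, 8.31 in KYSE450 and 1.21 in KYSE180. The treated values of KYSE450 and KYSE180 lie within the range of the untreated lines, and the KYSE450 fold starts from only 0.32 FPKM. The log2 fold change was 1.15 ± 0.32 (SE, n = 3; adjusted p = 0.421, limma).

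EIF2AK2 encodes PKR, a kinase that stops translation by phosphorylating eIF2α once it binds double-stranded RNA. It was already at 13.9, 17.8 and 19.0 FPKM in untreated KYSE30, KYSE180 and KYSE450, and stood at 79.0, 44.2 and 181 FPKM after IFN-β. The controls lie close together, the treated lines spread widely, and the groups do not overlap. Scaled folds were 5.71, 2.55 and 6.71, and the log2 fold change of 2.14 ± 0.28 (SE, n = 3; adjusted p = 0.0811, limma) missed the threshold.

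ADAR, which edits adenosine to inosine in double-stranded RNA and so limits its recognition by MDA5 and PKR, had the highest level of the 8 in every library. It stood at 54.3, 69.6 and 47.9 FPKM in untreated KYSE30, KYSE180 and KYSE450 and rose to 144.5, 124 and 188 FPKM. The scaled mean was 59.6 ± 3.29 FPKM in controls and 144 ± 23.6 FPKM after treatment (SD, n = 3), with no overlap. ADAR rose 2.68-fold, 1.84-fold and 2.77-fold, and its log2 fold change was 1.24 ± 0.16 (SE, n = 3; adjusted p = 0.0430, limma). The call was lost without KYSE30 (adjusted p = 0.205) and without KYSE450 (adjusted p = 0.179). The tables give 1 value per gene, so the interferon-inducible and constitutive ADAR transcripts cannot be told apart.

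ZBP1, a sensor of Z-form nucleic acid that can trigger necroptosis, was listed at 0 in untreated KYSE30 and in both KYSE450 libraries, and at 0.02 FPKM in treated KYSE30. KYSE180 alone reached 1 FPKM, with 2.48 FPKM untreated and 2.39 FPKM treated. In these bulk libraries a larger share of expressing cells and more RNA per cell cannot be told apart for any member.

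Without KYSE180, DDX58, IFIH1, TLR3 and EIF2AK2 passed the test as well as ADAR (adjusted p = 0.0231, 0.00344, 0.0244, 0.00257 and 0.0187 in that order, limma), and DHX58 did not. KYSE180 was the line with the smallest change in each of these genes except DHX58, which changed least in KYSE30 on the fitted scale. In the fit without KYSE180, 80 of 12825 genes tested passed (76 higher, 4 lower). Without KYSE450 no member passed, and without KYSE30 only DHX58 did (adjusted p = 0.0412). On the values as deposited 5 of 7 members passed, beside 1.91% of all genes (193 higher, 44 lower). Those values keep the shift of 0.43 on the log2 scale in KYSE450, and for 10827 genes that fit used no gene-specific spread. DDX58, IFIH1, EIF2AK2 and ADAR are the 4 members whose treated libraries all lay above all controls, which held for 1.91% of all genes tested. Higher in every line were 6 of 7 members, beside 17.5% of all genes, and 4 were at least 2-fold higher in every line, beside 0.676%. In single lines, 6 members passed 2-fold in KYSE30 (1.49% of all genes), 4 in KYSE180 (2.02%) and 6 in KYSE450 (1.98%), on the log2(scaled FPKM + 1) scale.

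**Figure D2:**
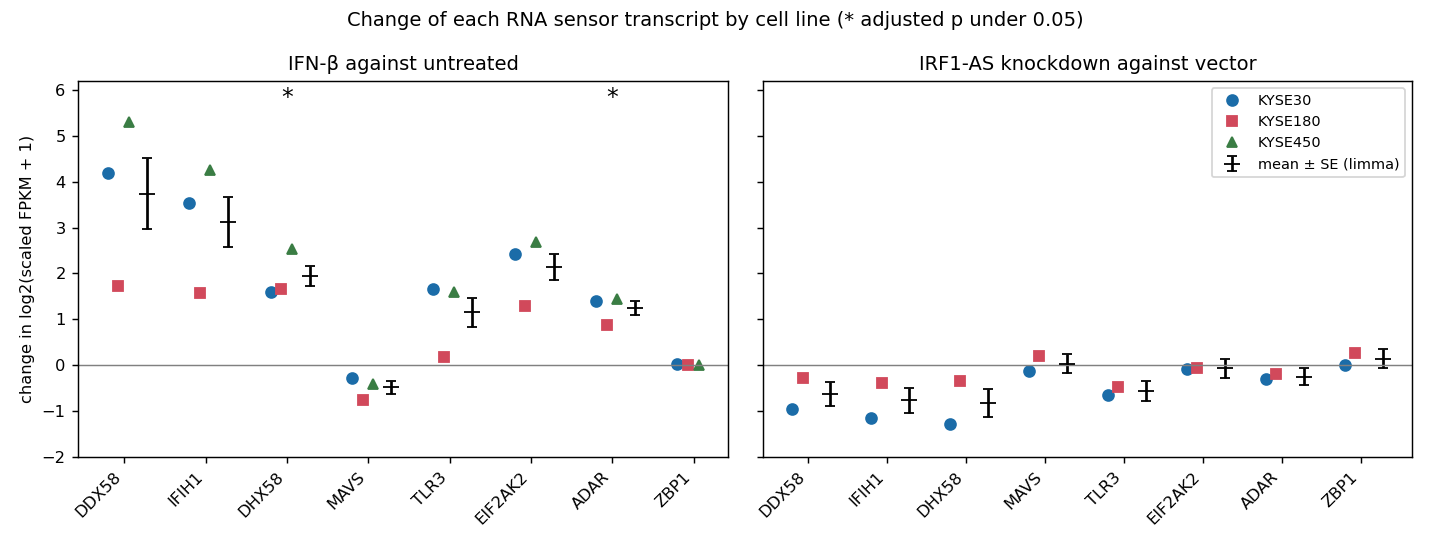
Change of each gene in each cell line, as the difference in log2(scaled FPKM + 1) between treated and control (left, IFN-β against untreated; right, IRF1-AS knockdown against vector); symbols are lines, the bar is the limma mean ± SE and an asterisk marks an adjusted p under 0.05. The lines span 1.73 to 5.32 for DDX58 but 0.87 to 1.45 for ADAR, and no gene carries an asterisk in the knockdown.

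The level of each receptor relative to its adaptor follows from values within a library, and scaling between libraries does not touch it. Before treatment there was less DDX58 than MAVS RNA in each line of the IFN-β experiment, at ratios of 0.185 (KYSE30), 0.187 (KYSE180) and 0.129 (KYSE450). After treatment the ratios were 4.98, 1.35 and 9.32. The IFIH1 to MAVS ratio was 0.190, 0.251 and 0.0652 in controls and 3.21, 1.55 and 2.78 after IFN-β. All 3 lines thus passed from less to more receptor than adaptor RNA for both genes. The DHX58 ratio did so only in KYSE180, from 0.282 to 1.83, and reached 0.107 in KYSE30 and 0.311 in KYSE450. These ratios were not tested.

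**Figure D3:**
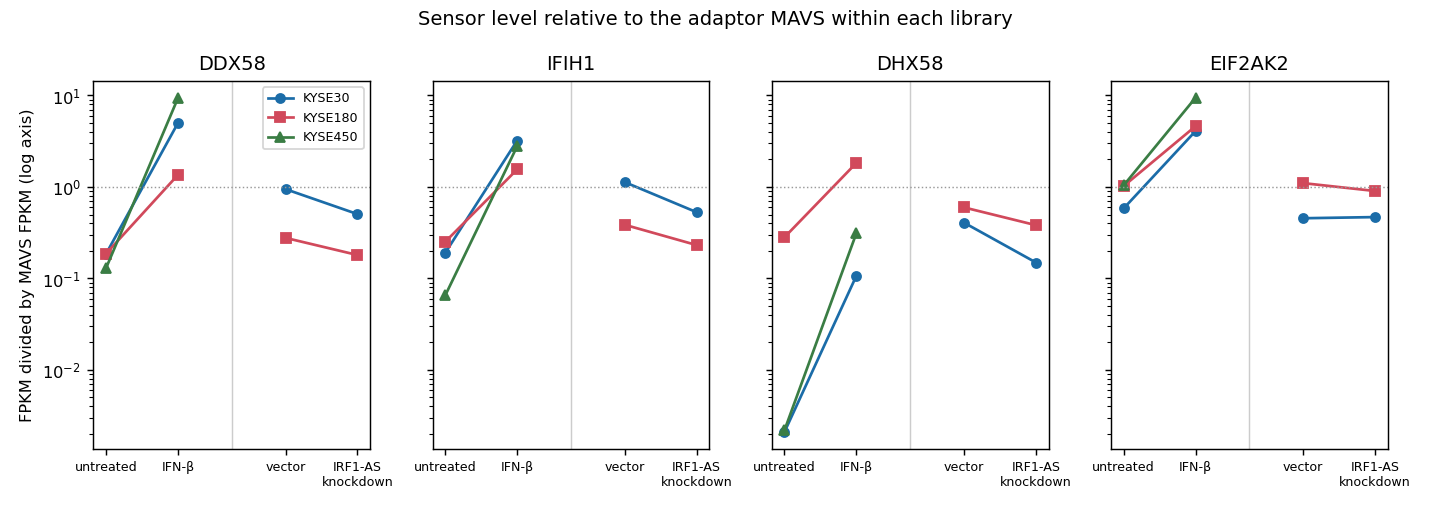
FPKM of DDX58, IFIH1, DHX58 and EIF2AK2 divided by the FPKM of MAVS in the same library, on a log axis, by group; lines join libraries of 1 cell line and the dotted line marks equal FPKM. DDX58 and IFIH1 lie below 1 in the controls of the IFN-β experiment and above 1 after treatment (4.98 and 3.21 in KYSE30).

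The order of the 8 genes in a library was led by ADAR throughout. In untreated lines of the IFN-β experiment MAVS and EIF2AK2 followed; they were 23.9 and 13.9 FPKM in KYSE30 but close together in KYSE180 (17.4 and 17.8 FPKM) and in KYSE450 (18.3 and 19.0 FPKM), where this order is within the spread between lines. After IFN-β, MAVS stood in the fifth place in KYSE30 and KYSE450 and the sixth in KYSE180. Treated KYSE450 had ADAR, EIF2AK2 and DDX58 at nearly one level (188, 181 and 179 FPKM).

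Across the 6 libraries of the IFN-β experiment, log2(scaled FPKM + 1) of DDX58 correlated with that of IFIH1 (Pearson r = 0.961), EIF2AK2 (0.961) and ADAR (0.945), but less with DHX58 (0.343). DHX58 ran opposite to MAVS (r = -0.942). The 6 points share lines and treatments, so these are descriptions. Among 8965 other genes at an average of 5 FPKM or more, those closest to DDX58 were TRIM25 (r = 0.995), PHF11 (0.984) and FST (0.984), and those closest to IFIH1 were PML (0.990), PHF11 (0.989) and DDX60L (0.988). ADAR was closest to DDX60 (0.995), SAMHD1 (0.989) and IFITM3 (0.989), and EIF2AK2 to MX2 (0.988), HES4 (0.982) and SAMHD1 (0.969). For TLR3 they were ERAP2 (0.980), CTBS (0.977) and GBP3 (0.975), for DHX58 SLCO4A1 (0.982), GTF2F1 (0.981) and NFKB2 (0.980), and for MAVS TAF9B (0.998), GNB2L1 (0.992) and RPLP0 (0.991).

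The calls in the pathway lists that follow are to be read beside the 0.418% of all genes called. Of 14 tested activators of RIG-I-like receptors none passed the test (median log2 change -0.04); DDX60 had 3.59 ± 0.51 (SE, n = 3; adjusted p = 0.159, limma) and TRIM25, a ubiquitin ligase of RIG-I, 1.22. Of 14 tested inhibitors 1 rose: NLRC5, which stood at 1.16, 1.58 and 0.71 FPKM in untreated and 9.88, 8.74 and 8.14 FPKM in treated KYSE30, KYSE180 and KYSE450 (log2 2.13 ± 0.15, adjusted p = 0.00438, limma). NLRC5 is also known as an activator of MHC class I genes. None of 26 tested genes of the relay downstream of MAVS and TICAM1 passed (median 0.06), with TANK at -0.42 and CASP8 at 0.38. The same held for 8 endosomal Toll-like receptor and trafficking genes (median 0.18; UNC93B1 at 0.77, CTSH at -0.69), 15 genes of the PKR arm (median 0.08; DDIT3 at 1.02, PPP1R15A at 0.57), 4 RNA deaminases (median 0.09; ADAT1 at 0.16, ADAT3 at 0.13) and 8 genes of the ZBP1 death arm (median 0.10; MLKL at 0.58).

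Calls were most numerous among other RNA-binding antiviral proteins. Of 16 tested, 6 rose and none fell, with a median log2 change of 1.35. OAS2, which makes the activator of RNase L, stood at 0.42, 0.78 and 0.22 FPKM in untreated and 182, 171 and 254 FPKM in treated KYSE30, KYSE180 and KYSE450 (log2 7.02 ± 0.18, adjusted p = 5.27e-05, limma). IFIT3, IFIT1 and OASL rose by 5.94, 5.43 and 3.93 on the log2 scale, and IFIT5 and IFIT2 by 2.40 and 2.98. For OAS2 the treated KYSE180 level was close to that of KYSE30, which DDX58 and IFIH1 levels were not. Of 9 tested genes of the interferon receptor and its transcription factors 2 rose, among them IRF1 (log2 1.31 ± 0.13, adjusted p = 0.0177, limma); the list median was 0.41. None of the 8 interferon genes and none of the 10 fibroblast or endothelial markers reached the filter. CD68, the one leukocyte marker tested, was at 1.66, 8.71 and 0.61 FPKM in controls and 2.5, 15.8 and 5.10 FPKM after treatment, and the squamous list had a median of -0.21 with none of 10 called; their part in the sensor values was not tested.

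**Figure D4:**
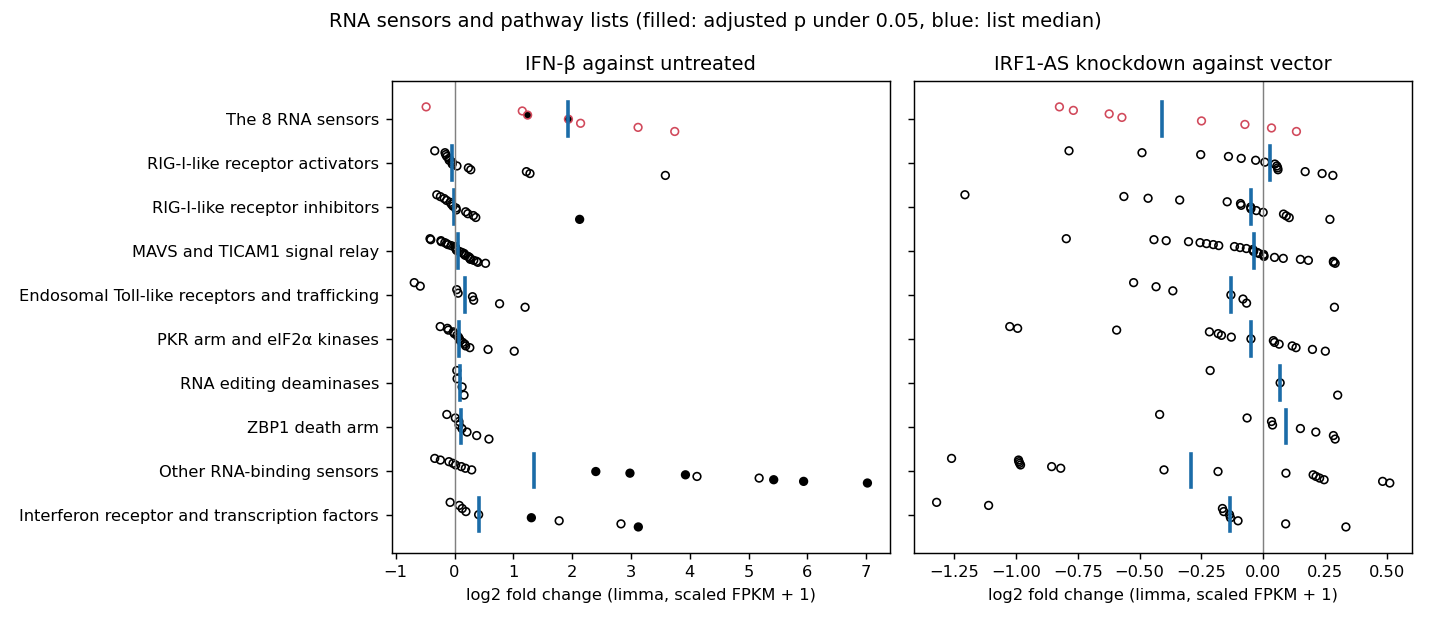
Log2 change of every tested gene in each pathway list (points, filled where the adjusted p is under 0.05) and the list median (blue bar), for IFN-β on the left (7 sensors tested) and the IRF1-AS knockdown on the right; the horizontal scales of the panels differ. The RNA sensors (median 1.94) and the other RNA-binding sensors (median 1.35) lie to the right of the other pathway lists under IFN-β.

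The knockdown comparison asks what loss of IRF1-AS does in cells whose labels name no interferon treatment. The labels give neither the targeted transcript nor the hairpin; C5orf56, the annotated gene that overlaps IRF1 on the opposite strand, was taken as the target, matched by its Ensembl identifier in one set of tables and by symbol in the IFN-β set. It stood at 6.86 FPKM in vector control and 3.04 FPKM in knockdown KYSE30, and at 1.08 and 0.948 FPKM in KYSE180, where the check of the label shows little difference. Reads of C5orf56 and IRF1 may be mixed where they overlap. IRF1 itself stood at 31.1 and 5.88 FPKM in KYSE30 and, in KYSE180, at 1.83 and 1.20 FPKM. In the IFN-β experiment C5orf56 was at 1.72, 0.97 and 0.38 FPKM in untreated and 6.62, 5.47 and 3.93 FPKM in treated KYSE30, KYSE180 and KYSE450.

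DDX58, IFIH1, DHX58 and TLR3 were lower in the knockdown of both lines by value, and MAVS and EIF2AK2 stayed near control. No member passed the test, and neither did any of the 12813 genes tested (0 of 8 members, 0.0% of all genes; limma, smallest adjusted p over all genes 0.227). Unadjusted, IFIH1, DHX58 and TLR3 had p under 0.05 (3 of 8 members, 823 of all genes tested). The median log2 change of the 8 members was -0.41 and that of all genes -0.02. Lower in both lines were 6 of 8 members, beside 28.5% of all genes. On the log2(scaled FPKM + 1) scale, 2 members, IFIH1 and DHX58, were 2-fold or more lower in KYSE30, beside 3.75% of all genes; as a plain ratio of scaled FPKM, DDX58 (48.6% of control) and TLR3 (47.8%) were so too. With 2 lines the fit has 1 residual degree of freedom. SEs of this fit draw on the spread of other genes: the residual SD of EIF2AK2 was 0.0101, while its SE was 0.198.

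DDX58 stood at 18.1 FPKM in vector control and 9.22 FPKM in knockdown KYSE30, and at 2.66 and 2.01 FPKM in KYSE180. After scaling the knockdown had 48.6% and 75.5% of control, a log2 fold change of -0.62 ± 0.26 (SE, n = 2 lines; adjusted p = 0.797, limma). IFIH1 stood at 21.5 and 9.67 FPKM in KYSE30 and, in KYSE180, at 3.70 and 2.58 FPKM, which is 42.7% and 69.7% of control (log2 -0.77 ± 0.27, adjusted p = 0.767, limma). For both receptors the knockdown of KYSE30 still exceeded the vector control of KYSE180, so the groups overlap.

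DHX58 stood at 7.77 and 2.73 FPKM in KYSE30 and, in KYSE180, at 5.74 and 4.26 FPKM, or 33.4% and 74.3% of control (log2 -0.82 ± 0.30, adjusted p = 0.774, limma). Both knockdown values lie below both controls. TLR3 stood at 2.24 and 1.12 FPKM in KYSE30 and, in KYSE180, at 0.821 and 0.291 FPKM, or 47.8% and 35.5% of control (log2 -0.57 ± 0.21, adjusted p = 0.774, limma). Both TLR3 values of KYSE180 are under 1 FPKM, and on the log2(scaled FPKM + 1) scale KYSE180 changed less (-0.49) than KYSE30 (-0.66). ADAR was at 58.7 and 50 FPKM in KYSE30 and, in KYSE180, at 61.1 and 52.9 FPKM, also without overlap (log2 -0.25 ± 0.18, adjusted p = 0.846, limma). Lack of overlap toward lower values held for 2 members and for 9.2% of all genes.

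MAVS stood at 19.1 and 18.3 FPKM in KYSE30 and, in KYSE180, at 9.60 and 11.1 FPKM, so the lines went opposite ways (log2 0.03 ± 0.20, adjusted p = 0.988, limma). EIF2AK2 was nearly level, at 8.69 and 8.55 FPKM in KYSE30 and 10.6 and 10.1 FPKM in KYSE180 (log2 -0.07 ± 0.20, adjusted p = 0.969, limma). ZBP1 was listed at 0 in both KYSE30 libraries and at 1.47 and 1.99 FPKM in KYSE180 (log2 0.14 ± 0.21, adjusted p = 0.929, limma). The DDX58 to MAVS ratio was 0.946 in vector control and 0.505 in knockdown KYSE30, and 0.277 and 0.180 in KYSE180. That of IFIH1 was 1.13 and 0.529 in KYSE30 and 0.386 and 0.231 in KYSE180.

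The vector control library labelled KYSE30 carried more receptor RNA than the untreated library labelled KYSE30 of the other experiment: 18.1 against 4.42 FPKM for DDX58, 21.5 against 4.54 FPKM for IFIH1 and 7.77 against 0.05 FPKM for DHX58. KRT5 also differed between these libraries (117 against 2.91 FPKM), and its part in the difference was not tested. The tables were normalized separately, and each percentile counts only genes at 1 FPKM or more in its own library. On that count DDX58 ranked at the 68.2 percentile in the KYSE30 vector control and at the 22.4 percentile in untreated KYSE30. KYSE180 did not show this, with DDX58 at the 15.6 percentile in vector control and at the 15 percentile untreated. EIF2AK2 was not higher in the KYSE30 vector control (8.69 against 13.9 FPKM). Interferon RNA was lower in the KYSE30 knockdown beside the receptors: IFNB1 stood at 6.68 FPKM in the vector control and 1.26 FPKM in the knockdown, IFNL1 at 88.9 FPKM in the vector control and 20.6 FPKM in the knockdown, and IFNL3 at 76.9 and 18.8 FPKM. In KYSE180 IFNL1 and IFNL3 did not exceed 0.119 FPKM, and in the IFN-β libraries IFNB1 and IFNL1 reached at most 0.20 and 0.35 FPKM. IFNL2 and IFNL3 are near-identical copies, so how reads were split between them is uncertain. The part of interferon made by these cells in the sensor values was not tested.

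In the pathway lists no gene passed the knockdown test. List medians were 0.03 for RIG-I-like receptor activators (DDX60 at -0.79), -0.05 for inhibitors (TNFAIP3, which restrains NF-kB signalling, at -1.21), -0.04 for the MAVS and TICAM1 relay (IKBKE, a kinase of interferon regulatory factors, at -0.80), -0.13 for endosomal receptors (UNC93B1 at -0.52) and -0.05 for the PKR arm. Within the last, EIF2AK1, the heme-regulated eIF2α kinase, had -0.99 and DDIT3 -1.03. Medians were 0.07 for deaminases, 0.09 for the ZBP1 arm, -0.14 for the interferon receptor and its factors, -0.29 for other RNA-binding sensors (IFIT1 at -1.26, OAS1 at -0.99) and -1.08 for the 4 interferon genes tested. The squamous markers had a median of -0.20 (KRT14 at -1.12), the 2 leukocyte markers tested 0.04 and the 1 stromal marker tested, COL1A1, -0.48.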

How the data were processed

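Total RNA of the 10 libraries was sequenced after standard Illumina preparation, per the labels' protocols. Values are FPKM as the authors deposited them, per the file headers. TopHat, HTSeq and hg38 are named in the submitters' processing notes; the annotation and the strand setting were not given in the sources used here. Depth is unknown, and no counting error can be attached to a single value. Named-gene FPKM of the IFN-β tables sum to between 988427 and 993533 per library, and those of the knockdown tables to between 399081 and 425340, so the experiments were tested separately.

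Transcripts of the long non-coding part were added up by gene (16044 genes beside 20501 named genes), and 946 alternate-haplotype copies in the knockdown tables were added to their gene. Libraries were scaled by median of ratios; genes at 1 FPKM or more in at least 3 (IFN-β) or 2 (knockdown) libraries were fitted as log2(scaled FPKM + 1) in limma 3.58.1 (trend and robust options, statmod 1.5.0, R 4.3.3), with Benjamini-Hochberg adjustment over all genes at 0.05. Fold changes on that scale understate changes of low genes. Cell line was a block, because same-numbered libraries are the same line; their deviations from the group means correlated at 0.910, 0.841 and 0.876 (KYSE30, KYSE180, KYSE450) in the IFN-β experiment and at 0.842 in the knockdown, where 2 pairs must give 1 value. The fit was also run on simulated data with 1 common spread for all genes and the same change in every line. That run therefore does not bear on genes whose change differs between lines. Alternatives covered scaling, pseudocount, filter, moderation, features, block and each line left out.

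The members, the 13 gene lists and the tests were chosen with earlier results of these data known. All members are named; from each list, up to 4 called genes with the largest change, or with no call the 2 with the smallest p; similar genes are the 3 with the highest Pearson correlation. IFIT2, IFIT5 and the levels of C5orf56, IFNB1 and markers were chosen for the text after their values were seen. Some genes of the lists are not reported here.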

Additional observations from a re-analysis of the deposited data

Results flagged for a closer look

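In 2 cases the members moved in opposite directions in the lines of one experiment; each line has 1 pair of libraries and neither difference was tested. MAVS in the knockdown was higher by 0.20 on the log2 scale in KYSE180 and at -0.13 in KYSE30, a difference of 0.33. ZBP1 after IFN-β was at 0.03 in KYSE30 and -0.01 in KYSE180, a difference of 0.038, with KYSE30 at or near a listed value of 0.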

How the results depend on the processing

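The direction of all 7 tested members under IFN-β was the same in every alternative run; their side of the threshold was not. Calls over all genes (52) numbered 237 as deposited, 13 without a filter, and 32 to 80 with 1 line left out. Calls among the sensors (2) numbered 5 as deposited, 0 with a pseudocount of 0.1 FPKM, 0 without a filter, 1 at a minimum of 5 FPKM, 1 without the trend option, and 0 to 5 with 1 line left out. Without the replicate block, which ignores that libraries of a line are paired, 13 genes and 0 sensors passed. As deposited, limma estimated no gene-specific spread for 10827 of 12428 genes. The p-values of those genes therefore rest on a spread shared between genes, and not on each gene's own spread between lines. The lowest adjusted p (limma) of DHX58, ADAR and EIF2AK2 in the ranges that follow came from that fit. How far the shared spread bears on the calls of the members was not tested. The cause of the other differences was not tested. DHX58 passed in 6 of 11 alternatives (adjusted p from 4.47e-13 to 0.999991), ADAR in 6 of 12 (7.02e-10 to 0.514), EIF2AK2 in 4 of 12 (9.80e-22 to 0.813) and MAVS in 0 of 12. In the knockdown no gene passed under any alternative with a test, and the sign of MAVS was kept in 9 of 10; leaving out a line leaves 1 pair and only values. Depth is unknown, so levels near 0 have no stated precision. Among these are DHX58 and ZBP1 controls, and TLR3 in untreated KYSE450 and in KYSE180 of the knockdown experiment.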
